A study of Homo sapiens with 13 samples.

Results

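HOX genes encode homeodomain transcription factors that tell cells where they lie along the body axis. They sit in 4 clusters, HOXA, HOXB, HOXC and HOXD, and within a cluster the order of the genes follows the order in which they are used from head to tail, so that genes with low numbers act toward the head and genes with high numbers toward the tail, the limb ends and the genital tract. Polycomb proteins keep unused HOX genes silent and the KMT2A family of H3K4 methyltransferases keeps used ones on, and differentiated and tumour cells often hold a pattern of HOX activity that reflects the tissue they came from. The members described here were the protein-coding genes of RefSeq GRCh38.p14 whose symbol is HOXA, HOXB, HOXC or HOXD with a number, 38 of 19970 coding genes: 10 in HOXA, 10 in HOXB, 9 in HOXC and 9 in HOXD.

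The data were CUT&RUN peak lists from PANC1 cells, a human line established from a pancreatic ductal carcinoma. In CUT&RUN, an antibody guides a nuclease to its target, and the fragments cut loose there are sequenced. All 12 libraries came from mildly crosslinked PANC1 cells of a stable line expressing BRG1 ("BRG oe" in the labels), so a comparison with the parental BRG1 level was not possible, and the labels do not say whether the stable line is 1 clone. There were 2 replicates for each of 6 targets: the histone marks H3K4me3, found at promoters, H3K27ac, found at active promoters and enhancers, and H3K4me1, found at enhancers; BRG1, the motor subunit of SWI/SNF chromatin remodellers; SMARCC1, another core SWI/SNF subunit; and NRF2, the transcription factor of the antioxidant response. The labels do not say whether replicates were separate cultures, so the spread between them may be technical. No RNA was measured.

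The lists held 17752 to 18789 H3K4me3 peaks, 32294 to 32499 H3K27ac peaks and 34234 to 37283 H3K4me1 peaks, against 3213 and 6610 for BRG1, 1538 and 919 for NRF2 and 600 and 572 for SMARCC1. The lowest −log10 p of a list was 2.01 to 2.04, and some peaks had a −log10 q of 0.0. A −log10 q of at least 5 was reached by 13298 and 12891 H3K4me3 peaks, 2553 and 2590 H3K27ac peaks, and 239 and 80 H3K4me1 peaks. Carrying a mark, as used below, sets no threshold on q unless one is named. A peak list carries no read counts, so depth is unknown: where no peak is listed, the target may be absent or the library too shallow to show it. The fold enrichment of a peak is the authors' deposited value, and the labels leave unsaid whether it is over IgG or over local background. A region below is the merged span of overlapping peaks that holds at least 1 peak from each replicate, and a gene carried a mark when its span plus 2000 bp on each side met such a region. Marker genes were checked against the labelled cell type. Among all coding genes, 63% carried H3K4me3 and 51.1% H3K27ac. Of 6 markers of ductal epithelium, all 6 carried H3K27ac and 5 carried H3K4me3 (SOX9 at fold 39.5 and 41.7 in the 2 libraries, KRT19 at 22.5 and 25.4), while 0 of 6 acinar and 0 of 6 endocrine markers carried either mark. The ductal marker KRT7 lacked H3K4me3. MUC1 had both marks only in its flank, with H3K4me3 at 3.9 and 4.22 and H3K27ac at 3.85 and 4.29. Among 5 leukocyte markers, CD14 had a low H3K4me3 peak (fold 4.2 in both libraries) and PTPRC a low H3K27ac peak (2.78 and 2.63), and among 5 fibroblast markers PDGFRB carried H3K27ac (6.33 and 6.74) without H3K4me3.

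Both active marks were present at most HOX genes, and their spread differed widely between clusters. H3K4me3 was carried by 28 of the 38 HOX genes (73.7%), against 63% of all coding genes, and H3K27ac by 23 (60.5%), against 51.1%. By cluster, H3K4me3 was on 7 of 10 HOXA genes, 9 of 10 HOXB genes, 8 of 9 HOXC genes and 4 of 9 HOXD genes, and H3K27ac on 3, 9, 9 and 2 of them. The pooled counts therefore lie near the background while HOXB and HOXC lie above it for both marks, HOXD below it for both, and HOXA below it for H3K27ac. HOX genes overlap and share peaks: the 38 windows merge into 21 separate stretches, so members are not independent and no test was made over them. No other condition or cell line was profiled, so the clusters are compared with each other and with all genes only by these counts.

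Near gene starts (within 1000 bp of a listed start, or of either end where none is listed) the counts were 23 of 38 for H3K4me3, against 59% of coding genes, 20 for H3K27ac, against 44.7%, and 2 for H3K4me1, against 5.52%. BRG1, SMARCC1 and NRF2 had 0 there, against 0.586%, 0.285% and 0.185%. Counting only peaks with a −log10 q of at least 5 left 13 members with H3K27ac, against 7.67% of coding genes, so the count fell while its distance from the background grew.

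**Figure D1:**
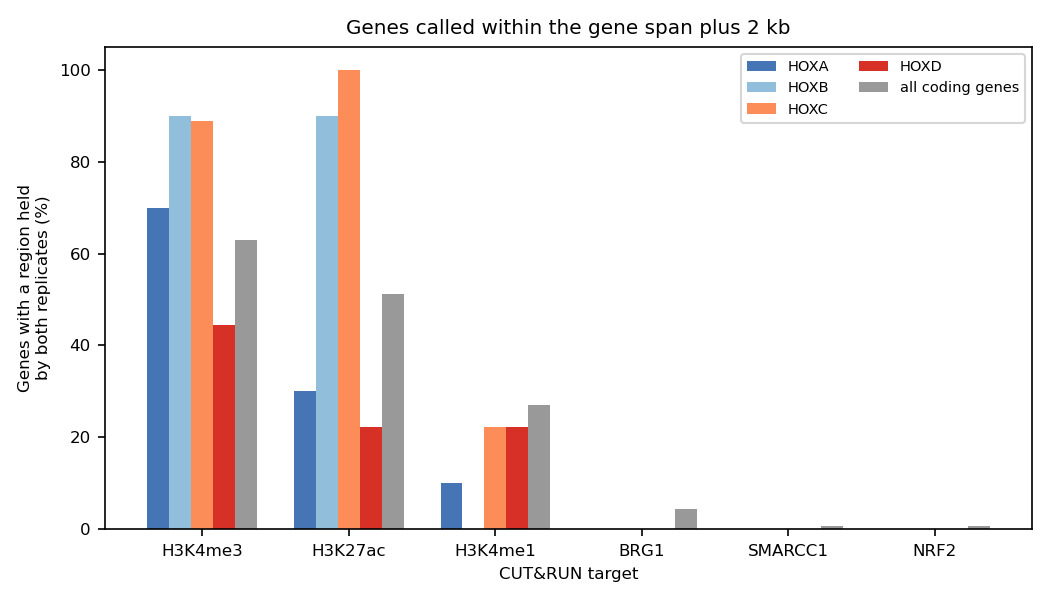
Percent of genes carrying a region held by both replicates within the gene span plus 2 kb, for each CUT&RUN target (x axis), in the 4 HOX clusters (coloured bars) and in all coding genes (grey). HOXB and HOXC stand above the grey bar for H3K4me3 and H3K27ac, HOXD below it, and no HOX gene has a bar for BRG1, SMARCC1 or NRF2.

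H3K4me3 and H3K27ac were carried together by 22 members (57.9%), against 49.1% of coding genes: HOXA2, HOXA3 and HOXA5; all of HOXB but HOXB1; all of HOXC but HOXC12; and HOXD8 and HOXD13. H3K4me3 without H3K27ac was found at 6 members (15.8%, against 13.9%): HOXA6, HOXA9, HOXA11, HOXA13, HOXD3 and HOXD1. H3K27ac without H3K4me3 was found at HOXC12 alone (2.63%, against 1.97%), and neither mark at 9 members (23.7%, against 35%): HOXA4, HOXA7, HOXA10, HOXB1, HOXD4, HOXD9, HOXD10, HOXD11 and HOXD12. Of the 28 members with H3K4me3, 78.6% also carried H3K27ac, against 77.9% of all genes with H3K4me3. A HOX gene with H3K4me3 was thus acetylated about as often as any other such gene, and the 6 members with H3K4me3 alone all lay in HOXA or HOXD. Of these 6, HOXA6 met only the edge of the HOXA5 region, whose acetylated part lay outside the HOXA6 window. HOXA9 and HOXA11 had an H3K27ac peak in library 2 alone, at fold 4.72 and 2.94.

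How promoter letters and marks compare is shown for 5 members. The reference lists gene starts for 20 of the 38 members, with 26 different promoter windows of 250 bases before a start. These 20 are 9 HOXA, 8 HOXD, 2 HOXC genes that share a window and 1 HOXB gene, so the windows speak for HOXA and HOXD and hardly for HOXB and HOXC. The dinucleotide CG (the same on both strands), whose density sets CpG islands apart, is in capitals; the sequences are from RefSeq GRCh38.p14, written 5′ to 3′ on the gene's strand. HOXD1 and HOXA13 are shown because an H3K4me3 region without H3K27ac lay over them, and HOXA4 and HOXA7 because neither mark was within their windows. HOXA2 is shown because its window met the peak with the highest H3K4me3 fold of any member, although no region covered its promoter. Except for HOXD1 and HOXA2, which a rule on the highest fold of each cluster named, these members were chosen after the values were seen.
HOXD1 promoter, chr2:176188418-176188667, plus strand: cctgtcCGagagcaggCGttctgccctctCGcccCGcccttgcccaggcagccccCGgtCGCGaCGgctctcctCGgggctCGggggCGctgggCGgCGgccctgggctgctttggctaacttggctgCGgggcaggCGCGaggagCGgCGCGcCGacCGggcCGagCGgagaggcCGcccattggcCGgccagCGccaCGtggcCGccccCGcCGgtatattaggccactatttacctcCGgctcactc
HOXA13 promoter, chr7:27200092-27200341, minus strand: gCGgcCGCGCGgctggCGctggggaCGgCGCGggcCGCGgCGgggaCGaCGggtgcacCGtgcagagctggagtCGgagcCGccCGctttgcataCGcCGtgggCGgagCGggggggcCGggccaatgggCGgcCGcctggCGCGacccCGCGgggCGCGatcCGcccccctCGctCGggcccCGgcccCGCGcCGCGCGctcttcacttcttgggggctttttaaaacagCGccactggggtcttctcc
HOXA4 promoter, chr7:27130758-27131007, minus strand: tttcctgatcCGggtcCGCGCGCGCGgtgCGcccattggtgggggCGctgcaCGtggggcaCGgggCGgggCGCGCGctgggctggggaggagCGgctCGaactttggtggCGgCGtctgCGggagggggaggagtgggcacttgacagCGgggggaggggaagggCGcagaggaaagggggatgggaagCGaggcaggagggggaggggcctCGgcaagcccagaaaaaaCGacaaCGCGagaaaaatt
HOXA7 promoter, chr7:27156676-27156925, minus strand: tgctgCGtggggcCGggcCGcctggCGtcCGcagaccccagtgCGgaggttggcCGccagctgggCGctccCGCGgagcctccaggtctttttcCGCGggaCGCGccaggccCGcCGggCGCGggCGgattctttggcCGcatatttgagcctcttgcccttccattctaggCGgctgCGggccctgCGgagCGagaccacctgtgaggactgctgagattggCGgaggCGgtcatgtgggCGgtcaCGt
HOXA2 promoter, chr7:27102684-27102933, minus strand: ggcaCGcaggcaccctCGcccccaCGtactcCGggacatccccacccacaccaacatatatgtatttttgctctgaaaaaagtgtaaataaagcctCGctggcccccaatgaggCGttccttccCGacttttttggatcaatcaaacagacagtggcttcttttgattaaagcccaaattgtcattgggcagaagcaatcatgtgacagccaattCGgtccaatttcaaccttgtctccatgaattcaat
These windows hold 31 CG in HOXD1, 40 in HOXA13, 26 in HOXA4, 28 in HOXA7 and 8 in HOXA2. A dense run of CG was thus present with the mark and without it.

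Over all 34789 promoter windows of the reference, 93.9% hold at least 1 CG, as do 25 of the 26 member windows. Among all promoters, the 13582 with an H3K4me3 region had a median of 23 CG and the 21207 without one a median of 4. Among member promoters, the 9 with an H3K4me3 region had a median of 19 CG (4 to 40) and the 17 without one a median of 20 (0 to 28). Unlike promoters at large, these windows had close medians with and without H3K4me3; this is a description of shared and neighbouring windows and was not tested. An H3K4me3 region met 34.6% of member windows, against 39% of all. H3K27ac met 5 of the 9 member windows with H3K4me3 and 0 of the 17 without. The 5 acetylated windows all belong to HOXA3, which has 7 listed starts. The median of the 9 windows with H3K4me3 therefore rests largely on this 1 gene.

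With neighbouring regions joined over short gaps, the widest stretches of both marks in the whole dataset lay in HOXB and HOXC. The widest H3K4me3 region of 15639 was chr12:53990387-54002884, 12498 bp from the end of HOXC10 into HOXC9, and the second widest was chr17:48609008-48618369, 9362 bp over HOXB7 and HOXB8, against a median of 1347 bp. When regions were joined into domains across gaps of up to 3000 bp, the widest of 12358 H3K4me3 domains was chr17:48576701-48605773, 29073 bp from HOXB4 to HOXB6, and the next was chr12:53981829-54002884, 21056 bp over HOXC10 and HOXC9 (median 1827 bp). For H3K27ac the widest of 14192 domains was chr12:53973103-54028894, 55792 bp from HOXC11 into the shared stretch of HOXC4, HOXC5 and HOXC6, and the next was chr17:48569273-48620060, 50788 bp from HOXB3 to HOXB8 (median 955 bp). The widest H3K27ac and H3K4me3 domains of HOXA came 125th (10391 bp) and 202nd (5796 bp), and those of HOXD 6504th (1071 bp) and 8638th (1326 bp).

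These ranks depend on how peaks were split and joined. Unjoined, the widest H3K27ac regions of HOXB (5084 bp) and HOXC (4190 bp) ranked 11 and 21 of 24239. In the second H3K4me3 library alone the 12498 bp HOXC region fell into several peaks, the widest 5972 bp (rank 24), and the widest HOXB peak was 7213 bp (rank 5). With domains joined over 3000 bp, HOXB and HOXC were ranks 1 and 2 for H3K4me3 in each library. For H3K27ac they held those ranks in each library too, with HOXC first in library 1 (55781 bp) and HOXB first in library 2, where its domain reached 79741 bp. With gaps of up to 1000 bp, the acetylated HOXB domain was 37874 bp (rank 1) and that of HOXC 14571 bp (rank 10); with gaps of up to 10000 bp they ranked 5 and 11, and the H3K4me3 domains 3 and 4.

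**Figure D2:**
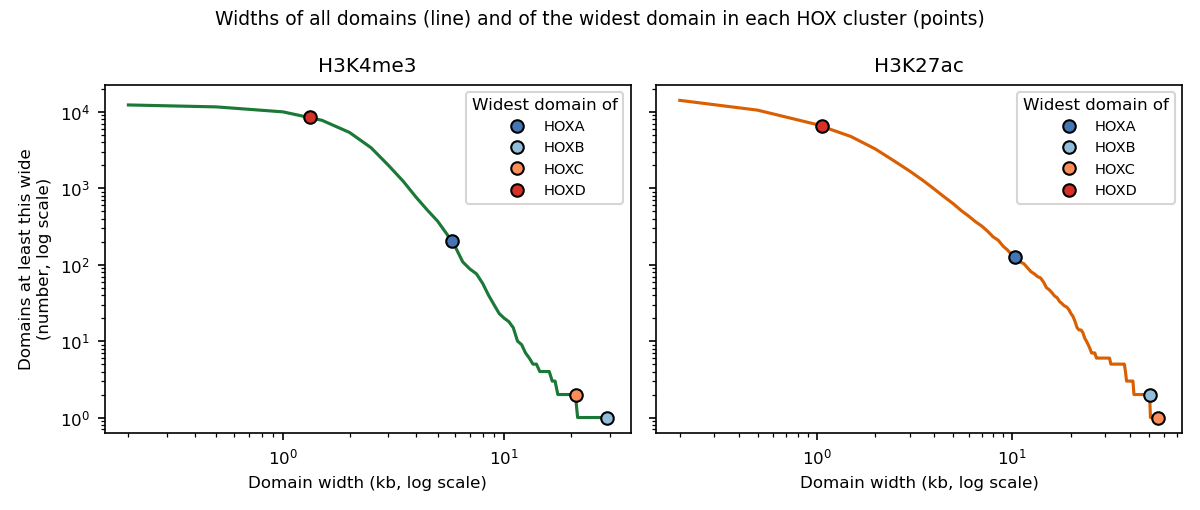
Number of domains at least as wide as the width on the x axis (kb; both axes are log scales), over all H3K4me3 domains (left) and H3K27ac domains (right), with the widest domain of each HOX cluster as a point. The HOXB and HOXC points sit at ranks 1 and 2 in both panels, at 29.1 and 21.1 kb for H3K4me3 and 50.8 and 55.8 kb for H3K27ac, and HOXD at 1.33 and 1.07 kb.

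HOX regions were wide rather than strong in H3K4me3. Over members with H3K4me3, the median of the highest fold in the window was 10.8 in library 1 and 11.6 in library 2, below the 15.6 and 16.1 over all 12590 genes with the mark, while the median widest region was 2454 bp against 1811 bp. For H3K27ac both were higher: the median highest fold over 23 members was 5.88 and 4.97, against 4.54 and 4.64 over 10202 genes, and the median widest region was 1614 bp against 813 bp. Of the 370733 bp in the 21 member windows, H3K4me3 peaks covered 22.8% and 21.7% and H3K27ac peaks 25.3% and 26.5%, against 1.66% and 1.64%, and 1.04% and 1.05%, of the 1318821013 bp in the windows of all coding genes. Those windows merge into 13096 stretches, which are longer on average than the member stretches. Gene length was not matched, so these shares per base are not a like comparison.

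**Figure D3:**
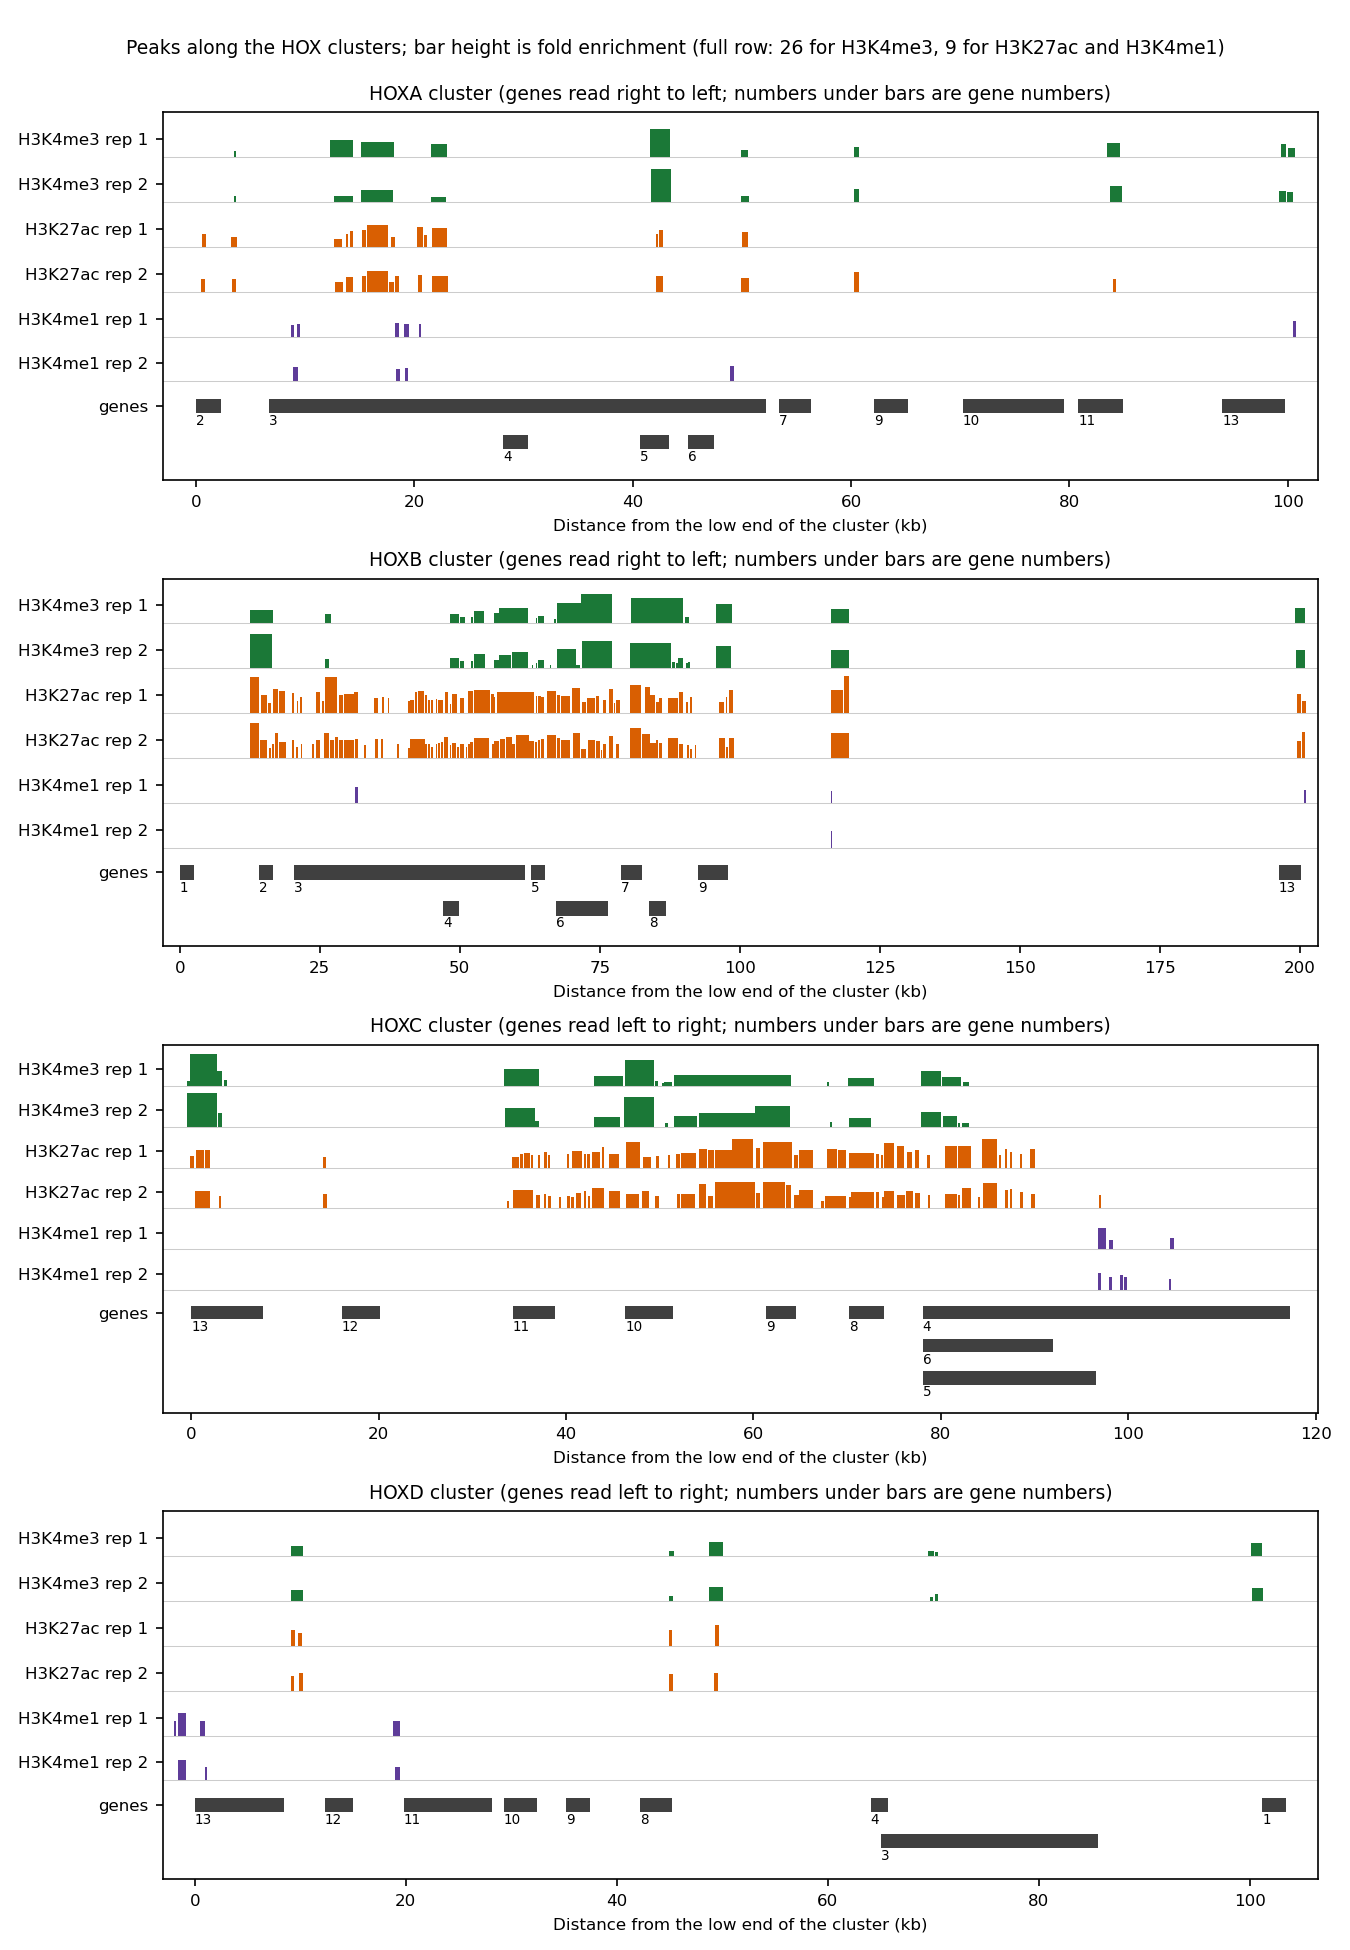
Peaks of H3K4me3 (green), H3K27ac (orange) and H3K4me1 (purple) along each HOX cluster in each replicate, against distance in kb from the cluster's low end; bar height is fold enrichment, and grey bars below are genes labelled with their number. H3K27ac runs from HOXB2 to HOXB9 and from HOXC11 to HOXC6 with H3K4me3 over much of the same stretches, both thin out past HOXA5, and most of HOXD is empty.

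In HOXB, which spans 200225 bp, the marks lay along the block from HOXB2 to HOXB9, H3K27ac more closely than H3K4me3. H3K4me3 peaks covered 40.1% and 39.0% of the stretch from HOXB1 to HOXB9 (mean 39.6% ± 0.746, SD, n = 2) and H3K27ac peaks 53.5% and 55.5% (54.5% ± 1.45, SD, n = 2). HOXB1, the hindbrain gene at the head end of the cluster, carried neither mark, and the nearest H3K4me3 region lay 9997 bp from its start. The low edge of the marked block was at HOXB2, another hindbrain gene: H3K4me3 began at 48541008 in library 1 and 48541076 in library 2, and H3K27ac at 48540986 and 48540976. Both marks thus began close together in each library. Within the long HOXB3 gene they parted: H3K4me3 had only the short region chr17:48554384-48555464 between the HOXB2 peak, which ended at 48545105, and 48576701, beside HOXB4, while H3K27ac ran through much of that stretch, up to 48564903 and again from 48569273.

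HOXB2 had 1 H3K4me3 peak in each library, of fold 8.86 and 23.3 (16.1 ± 10.2, SD, n = 2). The libraries differed more at this peak than at most members, so its height is poorly fixed. The highest H3K27ac peak in the HOXB2 window, of fold 8.42 and 8.16 (8.29 ± 0.178, SD, n = 2), gave the highest mean of any member. Its region, chr17:48540976-48542669, lay almost wholly past the low end of the gene, the end away from its start. The regions wholly inside HOXB2 had H3K27ac at 4.31 and 4.23, and at 2.28 and 2.43. HOXB3, which spans 41372 bp, held 8 and 10 H3K4me3 peaks (highest fold 10.6 and 10.8) and 34 and 41 H3K27ac peaks (highest 8.54 and 5.93).

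HOXB4, known for its part in expanding blood stem cells, had low H3K4me3 for the block, at fold 6.58 and 6.75 (6.66 ± 0.123, SD, n = 2). Inside the span of HOXB5 it was 5.14 and 5.97, and the higher window value of HOXB5, 10.6 and 10.8, came from the HOXB3 peak in its flank. The highest mean H3K4me3 of the cluster, 20.0 and 18.3 (19.2 ± 1.20, SD, n = 2), came from a peak over HOXB6 that also falls in the flank of HOXB7; in library 2 alone the HOXB2 peak was higher. HOXB8 lay whole within the H3K4me3 region it shares with HOXB7, at fold 17.5 and 17.4, and H3K4me3 peaks covered 100% and 94.9% of its window. The highest H3K27ac fold per window varied little through the block, from 4.86 to 7.07 for HOXB4 to HOXB8 in both libraries. These windows overlap, and HOXB7 and HOXB8 took the same highest peak. Single regions were lower, such as chr17:48600253-48601113 in HOXB6 at 2.63 and 2.08.

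HOXB9 stood in a short domain of its own. H3K4me3 over it, chr17:48624334-48627157, had fold 13.2 and 15.3 (14.2 ± 1.45, SD, n = 2), and H3K27ac, chr17:48624870-48627421, reached 5.43 and 4.84. Beyond it, the 98404 bp up to HOXB13 held 2 regions of each mark, 1 of them running over from HOXB9, and peaks covered 4.19% and 3.92% of that interval for H3K4me3 and 3.79% and 4.05% for H3K27ac. The other, chr17:48644800-48648122, lay over the noncoding genes LINC03057 and LINC02086, with H3K4me3 at 9.99 and 12.5 and H3K27ac at 8.8 and 5.93. HOXB13, the tail-most gene of the cluster and a prostate lineage factor, carried H3K4me3 over its start and H3K27ac on either side of it, 34 bp away at the nearest, with H3K4me3 at 10.4 and 12.2 (11.3 ± 1.23, SD, n = 2) and H3K27ac at 4.51 and 6.10.

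In HOXC, both marks covered the middle of the cluster, with an unmarked gap on the side of HOXC12 and an unmarked tail inside HOXC4. H3K4me3 peaks covered 29.8% and 27.6% of its 117200 bp (28.7% ± 1.60, SD, n = 2) and H3K27ac peaks 33.1% and 34.3% (33.7% ± 0.869, SD, n = 2). HOXC13, known for hair and nail growth, had an H3K4me3 peak across its start of fold 24.1 and 25.1 (24.6 ± 0.675, SD, n = 2), the highest of the cluster. Its H3K27ac, chr12:53939271-53940884, was moderate at 4.57 and 4.38.

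HOXC12 was the only member with H3K27ac and no H3K4me3. The acetylated region, chr12:53952932-53953309, lay in its flank, outside the gene span, and was small, 378 bp wide at fold 2.65 and 3.60 (3.13 ± 0.674, SD, n = 2). Its −log10 q was only 0.0 in library 1 and 1.51 in library 2, and the H3K27ac count of 9 of 9 HOXC genes includes it. The nearest H3K4me3 region to its start lay 12747 bp away. The long marked block then began at HOXC11, where the start of the H3K27ac domain differed by 15 bp between libraries. Over HOXC11, and over the antisense noncoding gene HOTAIR beside it, H3K4me3 was 12.7 and 13.9.

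Within the block, H3K4me3 was highest at HOXC10, with fold 19.6 and 22.4 (21.0 ± 1.96, SD, n = 2). It was 8.34 and 15.7 (12.0 ± 5.20, SD, n = 2) at HOXC9, where the first library holds a single peak across the whole 12498 bp region and the second holds several. HOXC8, a trunk gene, had the lowest H3K4me3 of the block, at 5.78 and 6.25, yet H3K27ac peaks covered 84.5% and 83.7% of its window. The genes HOXC4, HOXC5 and HOXC6 share a listed low end in the reference, and all took the same peaks, with H3K4me3 at 11.0 and 10.6 and H3K27ac at 7.41 and 6.66. H3K4me3 ended at 54021812 and 54021800 in the 2 libraries, and H3K27ac ran on to 54028883 and 54028894. Past that edge came the only H3K4me1 of the cluster, 3 regions inside HOXC4, the first and strongest at chr12:54035540-54036444 with fold 5.61 and 4.31; none met an H3K4me3 or H3K27ac region, although library 2 alone had an H3K27ac peak there (fold 3.44).

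In HOXA, marks were concentrated on the head side. From HOXA2 to HOXA5, H3K4me3 peaks covered 19.6% and 18.4% of the bases (19.0% ± 0.876, SD, n = 2) and H3K27ac peaks 17.2% and 18.1% (17.7% ± 0.635, SD, n = 2). From HOXA6 to HOXA13 they covered 4.80% and 5.10% (4.95% ± 0.207, SD, n = 2), and 1.15% and 2.61% (1.88% ± 1.03, SD, n = 2). The split after HOXA5 was chosen after seeing the data, so the difference between the sides is a description. The share of H3K4me3 bases also under an H3K27ac peak was 69.0% and 78.4% on the head side and 23.9% and 51.2% on the tail side.

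HOXA2, which patterns the hindbrain and the second pharyngeal arch, had the highest H3K4me3 value of any member, 32.2 and 33.9 (33.1 ± 1.17, SD, n = 2). The peak lay over the noncoding gene HOTAIRM1 and only reached into the flank of HOXA2. Its region was 4478 bp wide and so ran past the 2000 bp flank, and no H3K4me3 peak met HOXA2 itself. H3K27ac inside HOXA2 was low, at 3.0 and 3.08. HOXA3, a gene of pharyngeal arch and thymus development that spans 45574 bp, held 5 H3K4me3 peaks in each library. Its broadest marked stretch was the H3K27ac domain chr7:27113051-27123441, which held the highest H3K27ac fold between HOXA2 and HOXA13, 5.25 and 4.97.

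The strongest H3K4me3 region inside HOXA, chr7:27141955-27143879 with fold 18.9 and 22.5 (20.7 ± 2.58, SD, n = 2), covered the high end, the start, of HOXA5, a gene of lung and gut patterning. It lies within the long HOXA3 span and in the flank of HOXA6, so all 3 genes took its value; HOXA6 itself held no peak. Acetylation over it was 3.99 and 3.68. The last region acetylated in both libraries, chr7:27150317-27150970, had H3K27ac at 3.49 and 3.19 and H3K4me3 at 4.91 and 4.38. HOXA4, which lies between the H3K27ac domain of HOXA3 and the HOXA5 region, carried neither mark, and its start lay 7447 bp from the nearest H3K4me3 region.

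On the tail side, the stretch from HOXA6 to HOXA13 held 1 region acetylated in both libraries, chr7:27150317-27150970, described above. Past it, H3K4me3 returned in short isolated regions with little or no acetylation. The region chr7:27160600-27161091, in the flank of HOXA9, a blood progenitor gene often active in leukaemia, had H3K4me3 at 7.02 and 8.72 (7.87 ± 1.20, SD, n = 2), with an H3K27ac peak in library 2 only (4.72). HOXA11, a gene of the limb and uterus, had H3K4me3 at 9.92 and 11.1 (10.5 ± 0.814, SD, n = 2) in chr7:27183773-27185144, again with H3K27ac in library 2 only (2.94). HOXA13, a gene of the limb ends and genital tract, had H3K4me3 over its start at 8.88 and 7.36 (8.12 ± 1.08, SD, n = 2), in chr7:27199567-27200215, and a second region beside it over the noncoding gene HOTTIP at 6.34 and 6.65. No H3K27ac peak met HOXA13 in either library. HOXA7 and HOXA10 carried neither mark.

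HOXD was the least marked cluster. H3K4me3 peaks covered 4.39% and 4.20% of its 103421 bp (4.29% ± 0.131, SD, n = 2) and H3K27ac peaks 1.32% and 1.23% (1.27% ± 0.0663, SD, n = 2). A run of limb genes, HOXD9 to HOXD12, carried neither mark, and neither did HOXD4. HOXD13, known for digit formation, carried both marks only in the flank past its high end, at chr2:176096644-176097749, with H3K4me3 at 6.59 and 7.38 and H3K27ac at 3.75 and 4.18. HOXD8 had a low region at its high end, with H3K4me3 at 3.51 and 3.67 and H3K27ac at 3.68 and 3.91. At a −log10 q of at least 2, no H3K27ac region of HOXD was held by both libraries, although each library kept 1 peak: library 1 at chr2:176136763-176137165 (−log10 q 2.38) and library 2 at chr2:176097338-176097714 (2.70).

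The strongest H3K4me3 inside HOXD was at no coding member. It lay over the noncoding genes HOXD-AS2 and LOC401021, chr2:176136204-176137529, at fold 9.43 and 9.24, with H3K27ac at 4.87 and 4.28. HOXD3 had 2 weak H3K4me3 regions near a listed start (highest fold 3.57 and 4.63), without acetylation. HOXD1, at the head end of the cluster, had H3K4me3 at its start and over the antisense gene HAGLR, chr2:176187584-176188758, at 8.87 and 9.11 (8.99 ± 0.167, SD, n = 2), the highest of the coding members of HOXD. The library 2 peak crossed the start, and that of library 1 ended at 176188637, just before it. The nearest H3K27ac region to the HOXD1 start lay 51503 bp away. Its promoter, printed above with 31 CG, was therefore methylated at H3K4 and not detectably acetylated in either library.

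**Figure D4:**
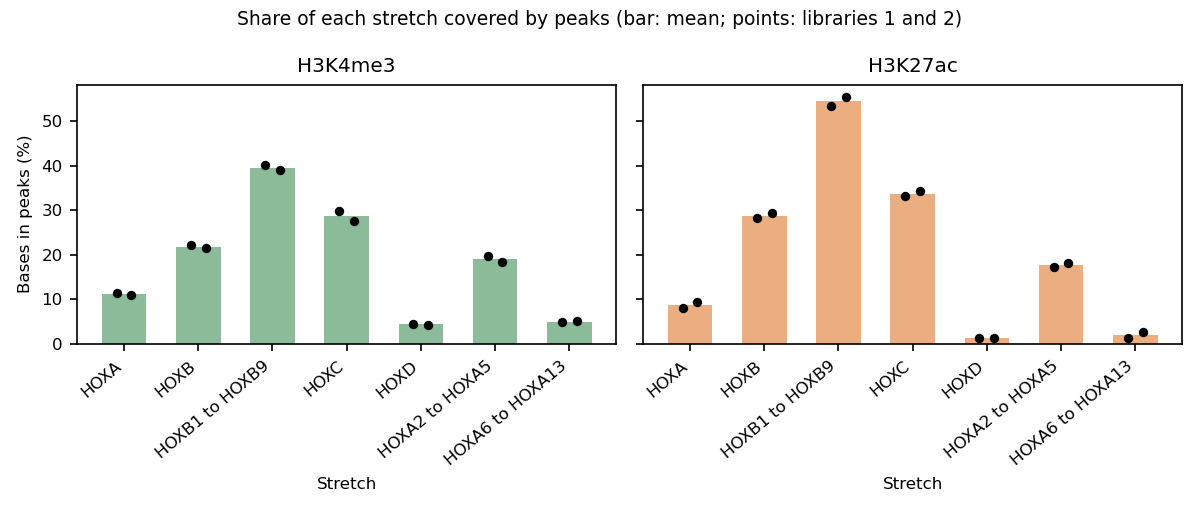
Percent of bases covered by H3K4me3 peaks (left) and H3K27ac peaks (right) in each cluster and in parts of HOXB and HOXA; bars are means and points the 2 libraries. Replicate points lie close together, the HOXB1 to HOXB9 stretch is highest at 39.6% and 54.5%, and HOXD is lowest among whole clusters at 4.29% and 1.27%.

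Where both marks were present they did not cover the same bases to the same degree. H3K27ac peaks overlay 79.5% and 84.1% of H3K4me3 bases in HOXB, 71.7% and 76.2% in HOXC, 57.6% and 70.1% in HOXA, and 29.9% and 29.0% in HOXD. HOXD lay apart from the other clusters in both libraries. Counted by region, H3K27ac met 17 of 17 H3K4me3 regions in HOXB, 9 of 11 in HOXC, 6 of 10 in HOXA and 3 of 6 in HOXD. In the other direction, 37 of 59 H3K27ac regions in HOXB and 18 of 40 in HOXC met H3K4me3, so acetylation ran past the methylated stretches there, against 9 of 11 in HOXA and 4 of 4 in HOXD.

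The marks also differed in where they lay along the genes. An H3K4me3 region covered the start of 19 members, and an H3K27ac region the start of 6, although 28 and 23 carried the mark in the window. A share of all coding genes was computed for listed starts only, so these counts have no like share beside them. Of the 20 members with a listed start, H3K4me3 covered it in 6, against 54.1% of coding genes with a listed start, and H3K27ac in 1, against 21.6%. These 20 members are 9 of HOXA, 8 of HOXD, 2 of HOXC and 1 of HOXB, so the comparison hardly speaks for HOXB and HOXC. H3K27ac covers fewer starts than H3K4me3 among all genes as well. In HOXB, H3K4me3 covered 6 starts and H3K27ac 3; in HOXC, 8 and 2; in HOXA, 3 and 1; in HOXD, 2 and 0. The reference lists starts for 20 members only, and for the other 18 the start was taken as the end of the span given by the cluster's strand.

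**Figure D5:**
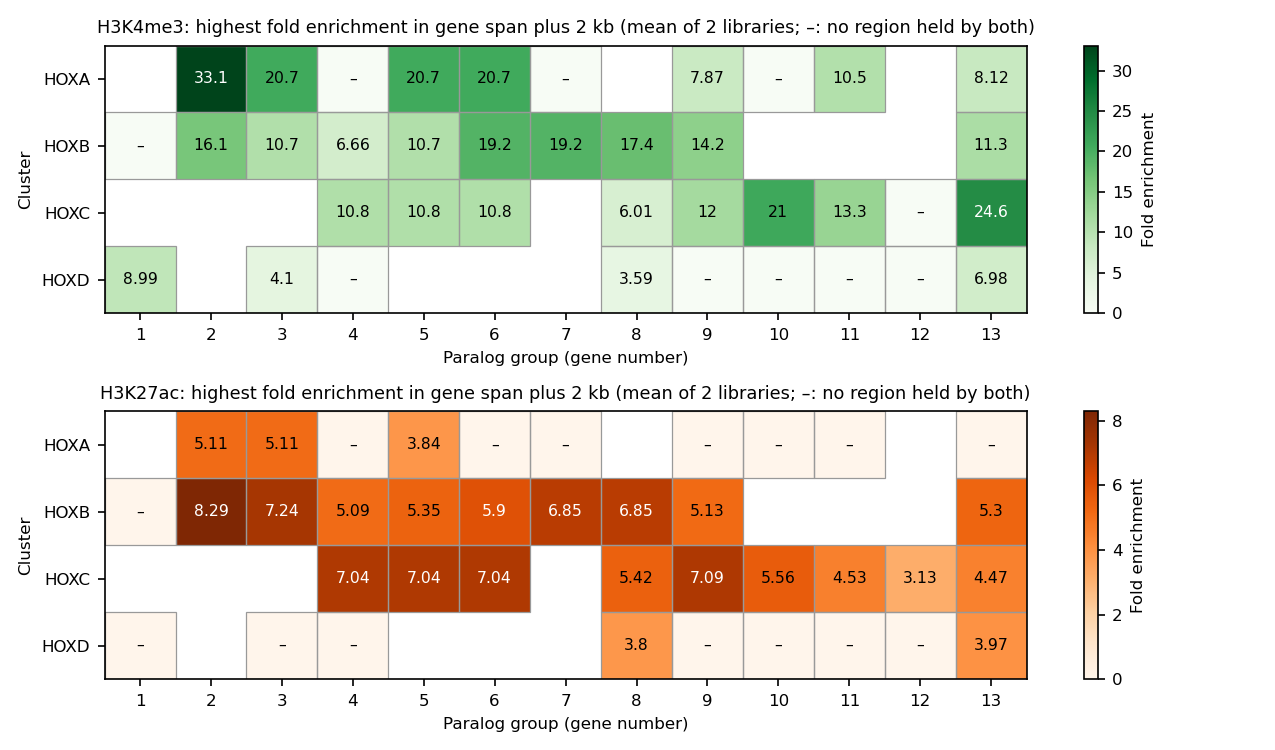
Highest fold enrichment within each HOX gene's span plus 2 kb (mean of 2 libraries), for H3K4me3 (top) and H3K27ac (bottom), with clusters as rows and paralog groups as columns; a dash marks a gene with no region held by both libraries, and blank cells hold no value. Dashes gather in HOXD and on the tail side of HOXA for H3K27ac, and group 13 has an H3K4me3 value in all 4 clusters, from 6.98 to 24.6.

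Genes with the same number in different clusters are paralogs, descended from 1 ancestral gene and similar in their homeodomain. H3K4me3 was carried by 4 of 4 genes of group 13 and H3K27ac by 3 of 4, HOXA13 being the exception. HOXD13 had both marks only in its flank. Groups 2, 3, 5, 6 and 8 also had H3K4me3 at every gene reported, although HOXA2 and HOXA6 had it only in their flanks. In HOXC, the genes HOXC4, HOXC5 and HOXC6 took the same H3K4me3 and H3K27ac peaks at a shared low end. The H3K4me3 region of HOXD8 lay 2756 bp from its start. Group 10 had both marks at HOXC10 only, and group 12 had H3K4me3 at neither HOXC12 nor HOXD12. Paralogs therefore differed by cluster: HOXB4 and HOXC4 carried both marks while HOXA4 and HOXD4 carried neither, and HOXB9 and HOXC9 carried both while HOXA9 had H3K4me3 in its flank and HOXD9 neither mark.

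The clusters also hold miRNA genes, whose mature RNAs repress transcripts through the seed, bases 2 to 8. They are shown because copies of 1 mature sequence come from clusters with different marks; the seed is in capitals, and the sequences are from RefSeq GRCh38.p14.
hsa-miR-196a-5p, from MIR196A2 in HOXC and MIR196A1 in HOXB: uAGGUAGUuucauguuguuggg
hsa-miR-196b-5p, from MIR196B in HOXA: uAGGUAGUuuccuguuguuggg
hsa-miR-10a-5p, from MIR10A in HOXB: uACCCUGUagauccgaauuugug
The miR-196 RNAs share the seed AGGUAGU and are known to target HOX transcripts. MIR196A2, chr12:53991738-53991847, lay inside the widest H3K4me3 region of the dataset and under H3K27ac. MIR196A1, chr17:48632490-48632559, which gives the same mature RNA, carried neither mark, with H3K4me3 5333 bp and H3K27ac 5069 bp away. MIR196B, chr7:27169480-27169563, carried neither, with H3K4me3 8389 bp away. Of the 3 genes with this seed, the HOXC copy was thus the only one inside a marked region. MIR10A, chr17:48579838-48579947, lay under H3K27ac, with H3K4me3 440 bp away, and its relative MIR10B in HOXD carried neither mark, with H3K4me3 6584 bp away. MIR615, inside HOXC4, lay past the edge of both marks, 1495 bp from the first H3K4me1 region there.

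H3K4me1 was carried by 5 members (13.2%), against 27% of coding genes: HOXA3, HOXC4, HOXC5, HOXD11 and HOXD13. A smaller share of members than of genes at large carried it, while its peaks covered more of their windows, 1.66% and 1.22% against 0.782% and 0.699%. Gene length was not matched in either comparison. Within 1000 bp of a listed start, or of either end where none is listed, 2 of 38 members carried it, against 5.52% of coding genes. Genes differ in their number of such windows: 18 members had both ends used, and HOXA3 had 7 listed starts. That comparison is therefore not like for like either. Of its 10 regions in the clusters, 8 met neither other mark. In HOXA the 3 regions lay inside HOXA3 at folds of 2.91 to 3.30, and in HOXD the strongest, chr2:176085882-176086639 at 5.22 and 4.78, lay before HOXD13. The count of members was small and moved with the definition, from 0 with a −log10 q of at least 5 to 9 with peaks of either library, so its distance from the background is weakly fixed.

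None of the 38 members carried BRG1, SMARCC1 or NRF2 in both replicates, against 4.43%, 0.686% and 0.666% of coding genes. With backgrounds this low, a count of 0 among 38 differs little from the share of other genes, and it was not tested. Single libraries held 3 weak factor peaks in members. BRG1 replicate 2 had a peak in HOXA3, chr7:27120633-27120867, at fold 3.77 with a −log10 q of 0.403, and a peak in HOXB3, chr17:48554804-48555003, at fold 3.15 with a −log10 q of 0.142. SMARCC1 replicate 2 had a peak in HOXB3, chr17:48552830-48553063, at fold 3.78 with a −log10 q of 0.0. The HOXB3 peak of BRG1 lay within an H3K4me3 region of that gene, chr17:48554384-48555464. BRG1 replicate 2 gave a peak to 2 of 38 members (5.26%), against 12.2% of coding genes, and SMARCC1 replicate 2 to 1 (2.63%), against 2.28%. An NRF2 peak in replicate 2 (fold 3.28) lay in the interval between HOXB9 and HOXB13, in the window of no member. The broad acetylated domains of HOXB and HOXC thus held no BRG1, SMARCC1 or NRF2 region found in both libraries.

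Noncoding genes of the clusters were looked up as a list. Of 21, 16 carried H3K4me3, 13 H3K27ac and 1 H3K4me1. No share over all noncoding genes was computed, so these counts have no background beside them. HOTTIP, HOXA11-AS and HAGLR carried H3K4me3 without H3K27ac, as did HOXA13, HOXA11 and HOXD1 beside them; each pair shares its peak, and CUT&RUN does not tell which strand is transcribed. Of the 13 coding genes that flank the clusters, 7 carried H3K4me3 and 6 H3K27ac, against 63% and 51.1% of all coding genes. EVX1 and EVX2, the even-skipped homologues beside HOXA13 and HOXD13, carried H3K4me1 and neither other mark, PRAC1 and PRAC2 beside HOXB13 carried no mark, and MTX2 beyond HOXD1 was well marked, with H3K4me3 at 27.6 and 24.7 and H3K27ac at 7.36 and 7.57. SKAP1, next to HOXB1, was the only neighbour with BRG1 in both replicates.

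Partners and regulators of HOX proteins were looked up as lists, to be read beside the 63% of all coding genes with H3K4me3 and the 51.1% with H3K27ac. The lists are short and were not tested. Of 9 cofactors, the PBX, MEIS and PKNOX proteins that bind DNA with HOX proteins, 8 carried H3K4me3 and 4 H3K27ac; PBX3 had H3K4me3 at 22.1 and 23.3 and MEIS2 at 21.8 and 24.0, both with H3K27ac, while MEIS1 had 6.88 and 6.61 without it and PKNOX2 carried neither. All 17 chromatin regulators of HOX genes carried H3K4me3 and 14 H3K27ac, the exceptions for H3K27ac being RNF2, BMI1 and CBX2. Of 10 upstream regulators, 5 carried H3K4me3 and 3 H3K27ac: the retinoic acid receptors RARA and RARG carried both, while ALDH1A2, which makes retinoic acid, CYP26A1, which breaks it down, CDX1 and CDX4 carried neither. Among the 6 ParaHox genes, the sister set of the HOX clusters, PDX1, the pancreatic master factor, carried H3K4me3 at 21.2 and 14.7 and H3K27ac at 6.76 and 5.57, CDX2 carried H3K4me3 alone at 7.02 and 6.37, and the other 4 carried neither.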

How the data were processed

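Per the labels, CUT&RUN libraries were made from 2 replicates for each of 6 targets, and the deposited files are peak lists called library by library. The IgG library was not used here, and it is not stated in the sources used here whether the authors called peaks against it. The tools named in the submitters' processing notes are MACS2 2.2.7.1, Picard 2.23.9, SAMtools 1.9 and Bowtie2 2.4.1, and the build is GRCh38; their roles and settings are not given in the sources used here. The fold enrichment of each peak (a ratio), its −log10 p and −log10 q, and its score are the authors' deposited values. Fold was used without rescaling, −log10 q only as a threshold in alternatives or to describe a peak, and the score only to check the columns.

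From these lists, overlapping peaks (at least 1 bp) of both replicates were merged into regions, on chromosomes 1 to 22 and X, and genes were called within the RefSeq GRCh38.p14 span plus 2000 bp. Domains joined regions over gaps of up to 3000 bp. No test was made: 1 cell line, 1 condition and shared regions leave none. Gene calling was checked on simulated data. Values were named for members with a factor peak, with the highest fold of each cluster, beside a domain edge or with 1 mark only, and as ranges otherwise. The members and lists were chosen with earlier results of these data known. Some genes that the rules name are not reported here. Homeodomain proteins, which the rule also named, were not used here. Alternatives were other flanks, a window of 1000 bp at gene starts, −log10 q thresholds, peaks of either replicate, bases in both libraries at once, other gaps and each replicate left out. Analyses used Python 3.11.15, NumPy 2.4.6, pandas 2.3.3 and matplotlib 3.10.9.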

Additional observations from a re-analysis of the deposited data

How the results depend on the processing

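The 16 counts and coverages were recomputed under 106 alternatives, of which 61 stayed within 1.5 times the count or 1 SD of the coverage and 45 did not. SDs over 2 libraries are small, so many coverages moved by little. Members with H3K27ac fell to 13 at a −log10 q of at least 5 and to 6 when a region had to cover a gene start, a setting chosen after seeing the data. Members with H3K4me1 were 2 without a flank, 2 within 1000 bp of starts, 1 at a −log10 q of at least 2, 0 at 5 and 9 with peaks of either replicate. With either replicate, BRG1 met 2 members and SMARCC1 met 1. Leaving out a replicate gave 6 to 8 members for H3K4me1, 0 to 2 for BRG1 and 0 to 1 for SMARCC1, the highest values coming from H3K4me1 replicate 1 alone and from replicate 2 of each factor alone.

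H3K4me3 coverage as regions was 11.8% in HOXA, 22.3% in HOXB, 29.2% in HOXC and 4.61% in HOXD. Counting bases in both libraries at once it was 10.5%, 20.8%, 27.2% and 3.98%, and with a replicate left out 11.0% to 11.3%, 21.4% to 22.2%, 27.6% to 29.8% and 4.20% to 4.39%. HOXD fell to 3.49% at a −log10 q of at least 2 and of at least 5. H3K27ac coverage was 9.0%, 30.1%, 34.8% and 1.45%. In both libraries at once it was 7.34%, 26.3%, 30.6% and 1.1%, with a replicate left out 8.1% to 9.29%, 28.3% to 29.4%, 33.1% to 34.3% and 1.23% to 1.32%, at a −log10 q of at least 2 3.88%, 25.4%, 29.9% and 0%, and at 5 1.98%, 17.5%, 10.6% and 0%. The order of HOXB and HOXC for H3K27ac thus turned at the strictest threshold. Over HOXB1 to HOXB9 alone, chosen after seeing the data, coverage was 40.3% for H3K4me3 and 57.0% for H3K27ac. The 25 H3K4me3 domains became 14 with gaps of up to 10000 bp and the 15 H3K27ac domains 27 with gaps of up to 1000 bp.

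No paired analysis was possible because the results come from no test. Depth is unknown, so a gene without a region is only a gene with none detected. H3K4me3 calls changed least with the threshold on −log10 q: its members stayed within 1.5 times the count at 2 and at 5, while H3K27ac and H3K4me1 did not at 5.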
